A study of Mus musculus with 6 samples.

Results

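The VEGF, neuropilin and angiopoietin genes are the secreted growth factors that act on blood and lymphatic vessel endothelium, together with some of the receptors and coreceptors that bind them. The 10 genes were taken by symbol from the RNA-Seq table, each matched 1 row, and the table holds 19730 rows in all. They are the ligands Vegfa, Vegfb, Vegfc, Figf (the mouse symbol for VEGF-D) and Pgf (placental growth factor), the receptor Flt1, the coreceptors Nrp1 and Nrp2, and the angiopoietins Angpt1 and Angpt2. RNA came from primary mouse mesangial cells, the contractile cells that hold the capillary loops of the kidney glomerulus together. The medium of all cultures, which were of passages 3 to 6, held 25.5 mM glucose and 20% serum, and there were 3 Control libraries and 3 libraries of cells given TGF-β1 at 10 ng/ml for 72 h. TGF-β1, or transforming growth factor beta 1, is a cytokine known to promote scarring. The sources used here do not say whether the cultures came from separate animals, so p-values measure the spread between these samples only.

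VEGF-A signals mainly through the receptor VEGFR2 (Kdr) on endothelial cells and is held back by VEGFR1 (Flt1), which binds it tightly and also exists as a soluble decoy. VEGF-B and placental growth factor bind VEGFR1, and VEGF-C and VEGF-D act through VEGFR3 (Flt4) on lymphatic endothelium. Neuropilins are coreceptors without a kinase of their own that bind VEGFs and class 3 semaphorins. Angiopoietin-1 activates the endothelial receptor Tie2 (Tek) and steadies vessels, and angiopoietin-2 mostly opposes it. In the glomerulus podocytes are the best known source of VEGF-A, and mesangial cells lie directly against the endothelium without a basement membrane between them.

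Values are FPKM, the number of sequenced fragments of a transcript scaled to its length and to the depth of the library, so levels of different genes can be set side by side. Depth, estimated from the steps between low FPKM values, was 10.1 to 11.1 M fragments per library, at which 1 fragment in a transcript of 2000 nt is worth 0.0501 to 0.0549 FPKM. Changes were tested with limma on log2(FPKM + 1) over the 11898 rows whose mean FPKM was 1 or more, with Benjamini-Hochberg adjustment over all of them, and an adjusted p under 0.05 counted as changed. Of those rows 48.1% changed, 24.5% upwards and 23.6% downwards, so a change of a single gene is common in these cells. When libraries were rescaled to a common sum of protein-coding rows, the median change over all rows moved from -0.02 to -0.19 and 33.9% of the calls were upwards in place of 50.9%. Of the genes listed here as mesangial markers, the smooth muscle genes Acta2 and Tagln and the receptor Pdgfrb were abundant. Their Control means were 997, 512 and 37.5 FPKM. Itga8, Des and Thy1, also in that list, were under 1 FPKM in every library.

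Of the 10 genes, 6 passed the filter on low values. Vegfa and Vegfc rose, Vegfb, Figf and Nrp2 fell, and Nrp1 did not pass the test. The other 4 were under a mean of 1 FPKM and were read from the same test without the filter, where 30.5% of all rows changed, 14.6% upwards and 16% downwards. There Flt1 and Angpt1 were higher with TGF-β1, and Pgf and Angpt2 did not pass. In replicates 1 and 3 alone, Vegfa, Vegfb, Vegfc and Figf were the genes still called. The groups did not overlap in 8 of the 10 genes, against 59.4% of the rows that passed the filter and 44.1% of all rows.

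**Figure D1:**
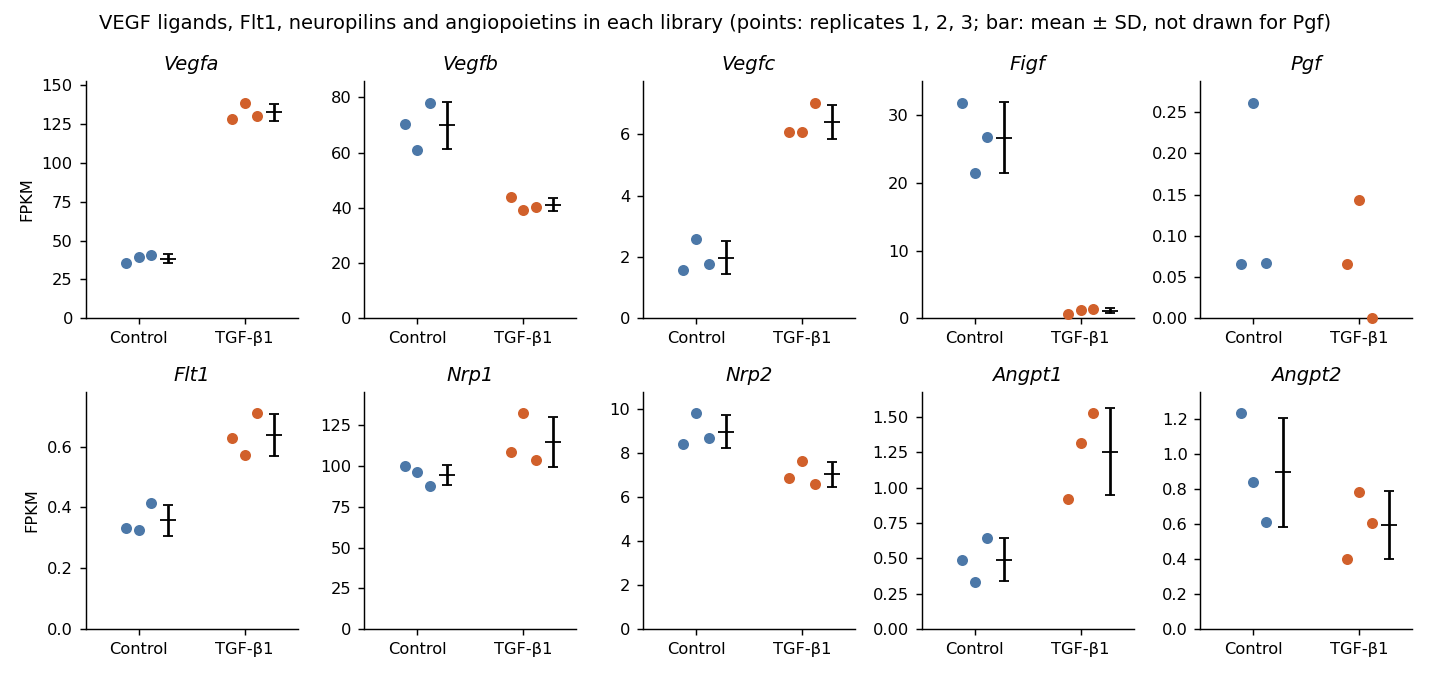
FPKM of each of the 10 genes in the 3 Control (blue) and 3 TGF-β1 (orange) libraries, each panel on its own linear axis from 0, with black bars for the mean ± SD (n = 3), left out for Pgf. Vegfa and Vegfc sit higher in every TGF-β1 library, Vegfb and Figf lower, and the points of Pgf and Angpt2 mix between groups.

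Vegfa, the main growth and permeability factor for endothelium, rose 3.45-fold. It lies on mm9 chromosome 17, 46153942 to 46169326, on the minus strand. Its level was 35.3, 39.2 and 40.7 FPKM in Control replicates 1 to 3 and 129, 139 and 130 FPKM in TGF-β1 replicates 1 to 3. The lowest treated library was thus far above the highest Control library. The group means were 38.4 ± 2.75 and 133 ± 5.47 FPKM (SD, n = 3), and limma put the rise at 1.76 on the log2 scale (SE 0.08, adjusted p 3.10e-05). Of all rows tested, 2.4% had an increase at least as large. The mean level of Vegfa stood above 85.6% of protein-coding rows in Control and above 95.4% with TGF-β1. The row names a transcript of 2765 nt with a coding sequence of 438 nt, which is 1 of 14 annotated transcripts of the gene, so the splice forms that differ in heparin binding cannot be told apart here.

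Vegfb, a ligand of VEGFR1 linked to lipid handling and survival more than to vessel growth, went the other way. It lies on chromosome 19, 7056963 to 7062141, minus strand. Control libraries had 70.5, 61.0 and 78.1 FPKM and TGF-β1 libraries 43.7, 39.1 and 40.4 FPKM. All 3 treated libraries lay below all 3 Control libraries, and replicate 2 was the lowest of each group. The means of 69.9 ± 8.57 and 41.1 ± 2.36 FPKM differ 1.70-fold, -0.75 on the log2 scale (SE 0.11, limma adjusted p 0.00221). The transcript has a GC content of 62.6%, and the deviation of TGF-β1 replicate 2 from its group fell with GC content, with Spearman's rho across 10116 genes of -0.39. In replicates 1 and 3 alone the change of Vegfb was -0.80 (limma adjusted p 0.00951).

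The lymphangiogenic ligands VEGF-C and VEGF-D, which share the receptor VEGFR3, changed in opposite directions. Vegfc (chromosome 8, 55162886 to 55271808, plus strand) was at 1.56, 2.58 and 1.77 FPKM in Control and at 6.07, 6.05 and 7.03 FPKM with TGF-β1. The treated libraries were all higher, and at this depth the values stand for about 29.0 to 48.0 fragments in a Control library and 103 to 128 in a treated one. The means were 1.97 ± 0.542 and 6.38 ± 0.558 FPKM, a 3.24-fold difference and 1.33 on the log2 scale (SE 0.15, limma adjusted p 8.06e-04).

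Figf had the largest change of the 10 genes. The gene (chromosome X, 160811310 to 160840582, plus strand) takes its symbol from c-fos-induced growth factor. Its level was 31.9, 21.5 and 26.7 FPKM in Control and 0.690, 1.25 and 1.44 FPKM with TGF-β1. Even the highest treated library was far below the lowest Control library, and the treated values stand for about 14.0 to 28.7 fragments. The means of 26.7 ± 5.22 and 1.13 ± 0.388 FPKM differ 23.7-fold, and the change on the log2 scale was -3.70 (SE 0.19, limma adjusted p 4.54e-05). Only 0.555% of tested rows had a decrease at least as large. Relative to other protein-coding rows the mean of Figf went from above 79.9% of them to above 34.5%. Summed markers of tubule epithelium (125 to 161 FPKM in Control, 7.54 to 9.27 FPKM with TGF-β1) and of macrophages (87.0 to 114 and 9.03 to 11.3 FPKM) moved the same way. Cdh16 made up most of the tubule sum and Cd14 most of the macrophage sum. Among other markers of these lists Aqp1, Lrp2 and Csf1r fell, Krt18 rose and Cd68 did not pass. Lrp2 and Krt18 were read without the filter. The tubule markers Cdh1 and Krt8 and the macrophage markers Ptprc and Itgam were under 1 FPKM in every library. Ptprc was listed at 0 in all 3 Control libraries. The part of these markers in the change of Figf was not tested. Vegfc over Figf, as a ratio of FPKM within a library, was 0.0488 to 0.120 in Control and 4.84 to 8.80 with TGF-β1.

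Placental growth factor was barely detected. Pgf (chromosome 12, 86507589 to 86518246, minus strand) was at 0.0652, 0.262 and 0.0671 FPKM in Control and at 0.0659, 0.143 and 0 FPKM with TGF-β1. These values stand for 1, 4 and 1 fragments in Control and 1, 2 and 0 fragments with TGF-β1, and the groups overlap. The log2 change of -0.08 had a 95% interval of -0.29 to 0.14 (limma without the filter, adjusted p 0.546), and a change of Pgf was not detectable at this depth.

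Together these changes altered which ligand had the highest FPKM. Vegfb made up 49.0% to 53.0% of the summed FPKM of the 5 ligands in Control and 21.1% to 24.4% with TGF-β1. Vegfa made up 25.4% to 31.5% in Control and 71.8% to 74.9% with TGF-β1. The share of Figf was 17.2% to 22.9% in Control and 0.385% to 0.800% with TGF-β1, and that of Vegfc 1.12% to 2.07% and 3.27% to 3.92%. The sum itself was 124 to 147 FPKM in Control and 179 to 185 FPKM with TGF-β1. The ratio of Vegfa to Vegfb was 0.501 to 0.643 in Control libraries and 2.94 to 3.55 in treated ones. These shares describe RNA levels of the chosen genes and carry no test. Whether a row holds the gene or only the named transcript is not given, so the shares may not be those of whole genes.

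**Figure D2:**
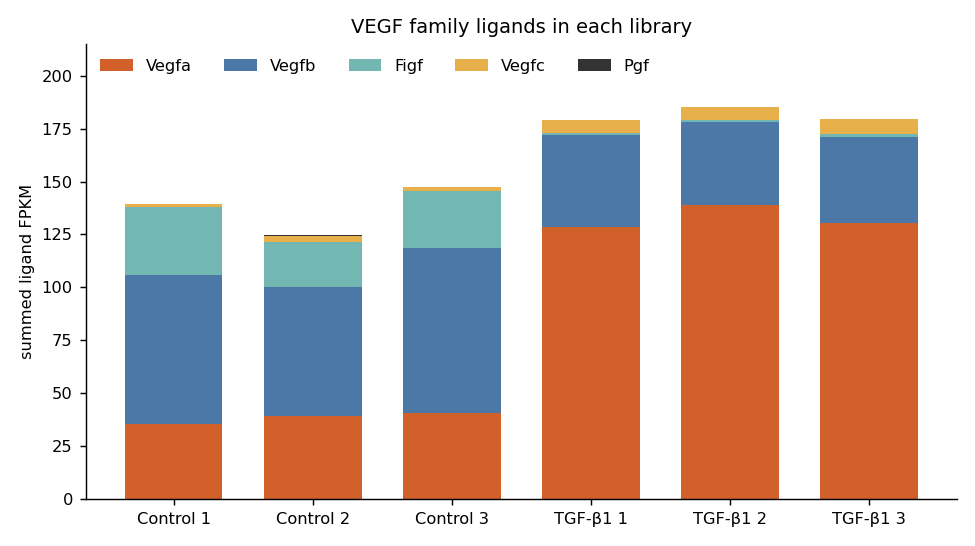
Summed FPKM of the 5 VEGF family ligands in each library, with the part of each ligand in its own colour. Vegfb is the largest part in the 3 Control libraries at 49.0% to 53.0%, Vegfa is the largest in the 3 TGF-β1 libraries at 71.8% to 74.9%, and Figf is hardly visible there.

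Vegfa and Figf also differ in the sequence before their annotated starts, which is shown here because they had the largest rise and the largest fall of the 10 genes. The window of 300 bases, 250 before to 50 after the annotated 5′ end of the gene, was read from the mm9 genome. The Vegfa window (chr17:46169277-46169576) has 62.0% GC and 16 CpG dinucleotides, and the Figf window (chrX:160811060-160811359) has 45.7% GC and 2 CpG dinucleotides. The medians over 15977 protein-coding genes were 58.3% and 17. Letters of known elements were searched on both strands, and matches may overlap each other. The Sp1 box GGGCGG was in 9 of the 10 windows, all but that of Figf, and in 54.1% of all windows. Vegfa had 2 such boxes close together. The AP-1 element TGANTCA, bound by Fos and Jun proteins, was in the Figf window alone, and in 5.81% of all windows. The hypoxia response core ACGTG was also in the Figf window alone of the 10, and in 23.5% of all. Each line below gives 26 bases read 5′ to 3′ on the strand of the gene, with the matched letters in capitals.
Vegfa, Sp1 box from -72, chr17:46169383-46169408: ccgctccccgGGGCGGgtctgggcgg
Vegfa, Sp1 box from -62, chr17:46169373-46169398: gggcgggtctGGGCGGggcttggggg
Figf, ACGTG core from -169, chrX:160811131-160811156: gttacaggcaACGTGcttaaaaaaaa
Figf, AP-1 element from -131, chrX:160811170-160811195: ctgcccatgTGAGTCAgcttttaaaa

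The other core of the hypoxia response element, GCGTG, was in 5 of the 10 windows (Vegfb, Pgf, Flt1, Nrp1 and Nrp2) and in 44.8% of all. The SMAD element CAGACA was in 3 (Angpt1, Angpt2 and Nrp1) and in 17.3% of all, and the TATA box TATAAA in 2 (Flt1 and Angpt1) and in 9.11% of all. The Flt1 box lies from -31, where TATA boxes are usually found, and is shown for that place.
Flt1, TATA box from -31, chr5:148537603-148537628: ggggaaaggtTATAAAtcgcccccgc
Angpt1, SMAD element on the opposite strand from -56, chr15:42508564-42508589: tcaaggcaatTGTCTGcggaaggggg
Angpt2, SMAD element on the opposite strand from -43, chr8:18741590-18741615: tggctgcacaTGTCTGgctgctctta
The angiopoietin lines are shown because both windows hold the SMAD letters on the same strand at nearby places. A match of letters is a description of the sequence and does not show that a factor binds there, and these windows leave out distant elements.

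RNA of the receptors for these ligands was scarce. Flt1 (VEGFR1, chromosome 5, 148373180 to 148537587, minus strand) was the member of the 10 that encodes a receptor kinase. It was at 0.331, 0.324 and 0.415 FPKM in Control and at 0.628, 0.572 and 0.709 FPKM with TGF-β1. The groups do not overlap, and the values stand for about 24 to 29.9 fragments in Control and 38.7 to 51.4 with TGF-β1. The means were 0.357 ± 0.0504 and 0.637 ± 0.0691 FPKM, a 1.78-fold difference and 0.27 on the log2 scale (SE 0.07, limma without the filter, adjusted p 0.0296). That call was lost without Control replicate 1, Control replicate 2, TGF-β1 replicate 1 or TGF-β1 replicate 3, with adjusted p-values of 0.0558 to 0.0609. The row names the full-length transcript, and the shorter transcript of the soluble decoy was not analysed here.

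Kdr (VEGFR2) was listed at 0 in all 3 Control libraries and in TGF-β1 replicate 3, and at 0.0159 and 0.0237 FPKM in TGF-β1 replicates 1 and 2. Flt4 (VEGFR3) was at 0.224, 0.329 and 0.567 FPKM in Control and at 0.437, 0.587 and 0.458 FPKM with TGF-β1, and the groups overlap (limma without the filter, log2 change 0.13, adjusted p 0.439). The row of Flt4 names a transcript annotated as non-coding. Tek (Tie2) was at 0.0208, 0.0228 and 0.0213 FPKM in Control, about 1 fragment each, and at 0.0229, 0 and 0 FPKM with TGF-β1. Ptprb, the phosphatase that switches Tie2 off, was at most 0.150 FPKM in any library (limma without the filter, log2 change 0.11, adjusted p 0.0906), and passed only without Control replicate 1, at 0.0350. Of the 6 genes in the list of receptors and Angpt4, 5 had a row, and 1 of these passed the filter. Tie1 had no row here.

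Endothelial markers were low as a group. Of 13 markers, 10 had a row here and 9 of these were under 1 FPKM in every library. Their summed level was 5.10 to 6.99 FPKM in Control and 3.48 to 4.99 FPKM with TGF-β1, most of it from Egfl7. Cdh5 and Erg, which define endothelium, had a value of 0 in all 3 Control libraries and at most 0.0318 FPKM with TGF-β1. Egfl7 itself was at 4.52 ± 1.14 and 3.03 ± 0.742 FPKM (-0.45 on the log2 scale, limma adjusted p 0.110). Its row names a short transcript of 367 nt, 1 of 21 of the gene. If the row holds that transcript alone, the values stand for about 7 to 10.5 fragments in Control and 4.1 to 6.2 with TGF-β1. Without the filter, Vwf was the endothelial marker that passed, lower with TGF-β1 at 0.222 ± 0.0922 FPKM against 0.465 ± 0.0723 FPKM (limma adjusted p 0.0498). That p-value lies at the threshold, and the values stand for about 2.5 to 5.6 fragments with TGF-β1 and 6.6 to 9.1 in Control.

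**Figure D3:**
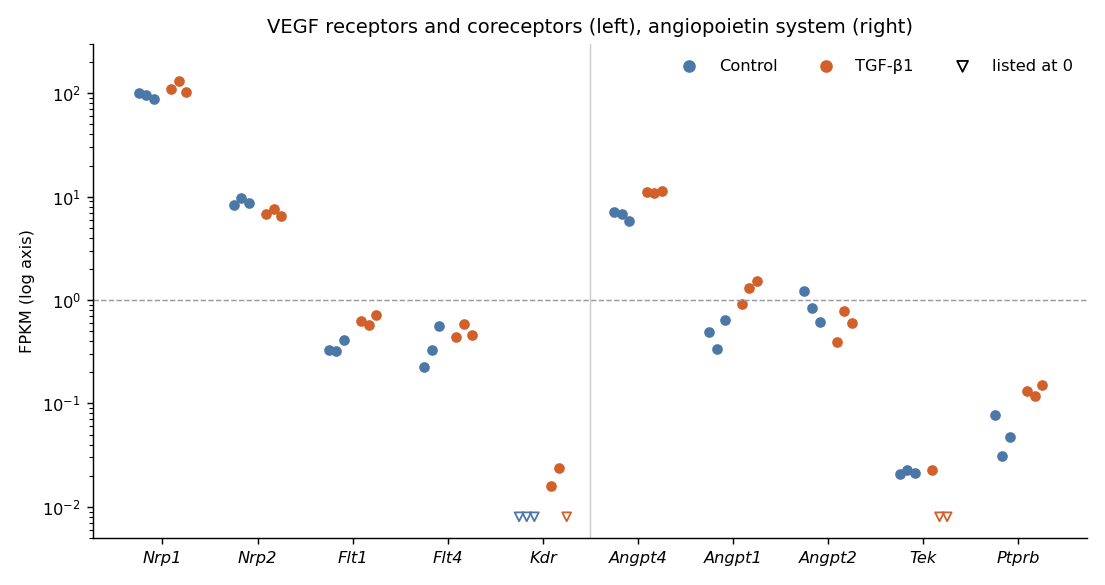
FPKM on a log axis of VEGF receptors and coreceptors (left) and of the angiopoietin system (right), 1 point per library, blue for Control and orange for TGF-β1, with open triangles at the bottom for values listed at 0 and a dashed line at 1 FPKM. Nrp1 lies near 100 FPKM in both groups, while Flt1, Flt4, Kdr, Tek and Ptprb lie below the line in every library.

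Of the coreceptors Nrp1, in contrast, was abundant, while the mean of Nrp2 stood above 58.5% of protein-coding rows in Control and 54.6% with TGF-β1. Nrp1 (chromosome 8, 130882973 to 131029362, plus strand) was the most abundant of the 10 genes in Control. Its level was 99.9, 96.4 and 87.9 FPKM in Control and 109, 132 and 104 FPKM with TGF-β1. Every treated library was above every Control library, by a small margin for replicates 1 and 3 and more for replicate 2. The means were 94.7 ± 6.20 and 115 ± 15.3 FPKM, a ratio of 1.21, and the log2 change of 0.27 had a 95% interval of -0.01 to 0.55 (limma adjusted p 0.0974). Nrp1 therefore did not pass the test, and it did not pass under any of the 15 alternatives tried.

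Nrp2, the coreceptor that also serves VEGF-C and lymphatic vessels, fell slightly. It lies on chromosome 1, 62749859 to 62865269, plus strand. Control libraries had 8.39, 9.79 and 8.66 FPKM and TGF-β1 libraries 6.83, 7.64 and 6.57 FPKM, and the groups do not overlap. The means of 8.95 ± 0.745 and 7.01 ± 0.556 FPKM differ 1.28-fold, -0.31 on the log2 scale (SE 0.10, limma adjusted p 0.0389). Leaving out any library but TGF-β1 replicate 2 ended the call, with adjusted p-values of 0.0562 to 0.122. It was also lost without the filter, at 0.0683, and in replicates 1 and 3 alone, at 0.0846. The row names a transcript of 2815 nt annotated as non-coding, 1 of 7 of the gene. The ratio of Nrp1 to Nrp2 was 9.84 to 11.9 in Control libraries and 15.8 to 17.3 in treated ones.

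Angpt1 and Angpt2 were low in both groups. Angpt1 (chromosome 15, 42256273 to 42508523, minus strand), the Tie2 agonist, was at 0.491, 0.335 and 0.640 FPKM in Control and at 0.922, 1.31 and 1.53 FPKM with TGF-β1. All treated libraries were higher, at about 41.0 to 67.0 fragments against 15.0 to 28. The means were 0.489 ± 0.153 and 1.25 ± 0.307 FPKM, a 2.57-fold difference and 0.59 on the log2 scale (SE 0.14, limma without the filter, adjusted p 0.0220). The call was lost without Control replicate 1, Control replicate 2, TGF-β1 replicate 2 or TGF-β1 replicate 3, at adjusted p-values of 0.0682 to 0.0766, and at 0.177 in replicates 1 and 3 alone. The non-coding gene Gm17473 overlaps Angpt1 on the opposite strand.

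Angpt2 (chromosome 8, 18690263 to 18741562, minus strand), the context-dependent antagonist, was at 1.23, 0.837 and 0.612 FPKM in Control and at 0.396, 0.781 and 0.605 FPKM with TGF-β1. The groups overlap. The means were 0.893 ± 0.313 and 0.594 ± 0.193 FPKM, and the log2 change of -0.24 had a 95% interval of -0.62 to 0.14 (limma without the filter, adjusted p 0.308). It was -0.12 without Control replicate 1 and -0.15 without TGF-β1 replicate 1, the highest and the lowest library, and passed in neither fit. Angpt2 overlaps Mcph1 on the opposite strand. The ratio of Angpt1 to Angpt2 was 0.399, 0.400 and 1.05 in Control replicates 1 to 3 and 2.32, 1.68 and 2.52 with TGF-β1. Angpt4, the third angiopoietin of the mouse and not one of the 10 genes, was above both. It had 6.57 ± 0.694 FPKM in Control and 11.2 ± 0.248 FPKM with TGF-β1 (log2 change 0.69, limma adjusted p 0.00173).

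**Figure D4:**
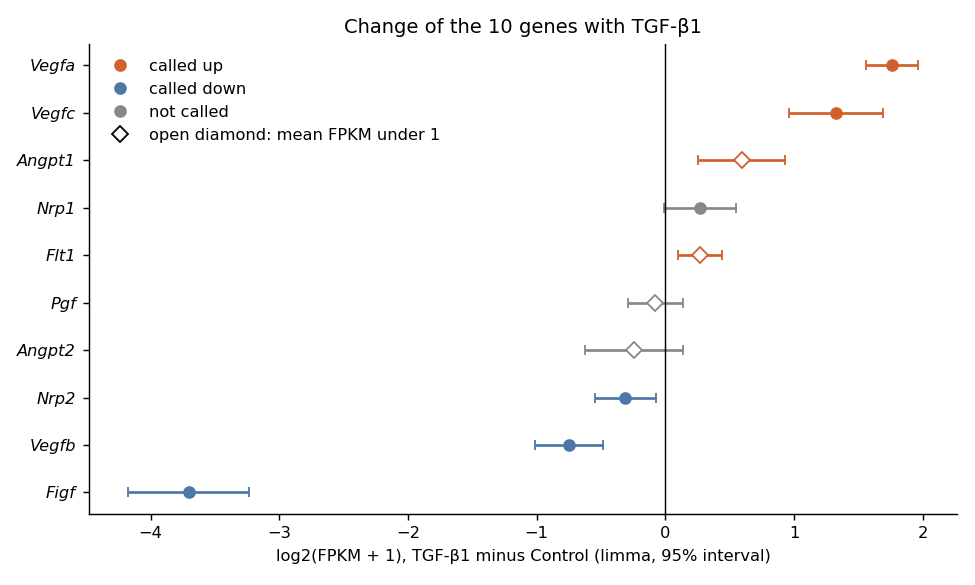
Change of each of the 10 genes on the log2(FPKM + 1) scale, TGF-β1 minus Control, with 95% intervals from limma (n = 3 per group), orange for called up, blue for called down and grey for not called, with open diamonds for genes under a mean of 1 FPKM. Figf at -3.70 and Vegfa at 1.76 lie at the ends, and the intervals of Nrp1, Pgf and Angpt2 include 0.

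By level, the 10 genes ran from Nrp1, Vegfb, Vegfa, Figf, Nrp2 and Vegfc down to Angpt2, Angpt1, Flt1 and Pgf in Control. Neighbours in this order did not overlap between libraries, except Angpt2 with Angpt1 and Angpt1 with Flt1. With TGF-β1 the order was Vegfa, Nrp1, Vegfb, Nrp2, Vegfc, Angpt1, Figf, Flt1, Angpt2 and Pgf, and the ranges of Vegfa and Nrp1, of Nrp2 and Vegfc, and of each neighbour from Angpt1 to Angpt2 overlapped. Among the profiles most like that of Vegfa across the 6 libraries, by the root-mean-square difference of centred log2 values over 11627 rows, were those of Cttnbp2nl (0.0426) and Actn1 (0.0504). For Figf they were Foxa1 (0.215), Itih2 (0.245) and I830012O16Rik (0.268).

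Genes that control or accompany Vegfa in low oxygen were taken as 2 lists. The counts of these and of the lists after them are to be read against the 24.5% of tested rows that rose and the 23.6% that fell, and no test of a list as a whole was run. The transcription factor HIF-1 drives Vegfa when oxygen is low, and prolyl hydroxylases of the Egln family mark it for removal. Of 8 regulators 6 were tested, and 2 rose and 0 fell, with a median log2 change of 0.09 against -0.02 over all tested rows. Hif1a rose from 26.4 ± 2.70 to 39.0 ± 2.48 FPKM (0.55 on the log2 scale, limma adjusted p 0.00507) and Egln1 from 21.1 ± 1.34 to 42.6 ± 1.26 FPKM (0.98, limma adjusted p 1.95e-04). Egln2 was at 25.1 ± 4.13 and 18.5 ± 3.80 FPKM (limma adjusted p 0.0989). When libraries were rescaled to the sum of protein-coding rows, 2 regulators fell. Epas1 and Egln3 were under the filter.

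Of 10 other hypoxia-inducible genes 8 were tested, and 7 rose and 1 fell, with a median of 0.80, against 24.5% and 23.6% of all tested rows. The glucose transporter Slc2a1 rose from 14.5 ± 2.07 to 42.8 ± 3.34 FPKM (1.51 on the log2 scale, limma adjusted p 1.91e-04), and the collagen prolyl hydroxylase P4ha1 from 66.5 ± 4.68 to 138 ± 7.84 FPKM (1.04, limma adjusted p 2.28e-04). Ndrg1 fell from 97.5 ± 4.40 to 29.4 ± 2.37 FPKM (-1.70, limma adjusted p 4.19e-05). The hypoxia genes Adm and Car9 had means over all 6 libraries under 1 FPKM and did not pass without the filter (limma adjusted p 0.129 and 0.208). Several genes of this list also respond to signals other than oxygen, and the oxygen tension of the cultures was not analysed here.

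Of 13 partners of the neuropilins 10 were tested, and 1 rose and 5 fell, against 24.5% and 23.6% of all tested rows, with a median of -0.51. The neuropilin ligands Sema3c (21.5 ± 0.885 to 4.11 ± 0.411 FPKM, log2 change -2.14) and Sema3d (3.70 ± 0.207 to 0.109 ± 0.0134 FPKM, -2.08) fell, with limma adjusted p-values of 2.23e-05 and 4.69e-05. The signalling coreceptor Plxna3, whose row names a short non-coding transcript, fell from 21.7 ± 3.17 to 6.55 ± 0.787 FPKM (-1.58, limma adjusted p 2.57e-04). Of the tested partners the one that rose was Plxnd1, a vascular guidance receptor named after its value was seen, from 5.61 ± 0.759 to 13.3 ± 1.21 FPKM (1.12, limma adjusted p 6.05e-04). Among the 3 partners under the filter, read without it and also named after their values were seen, the plexin Plxna4 rose from 0.0984 ± 0.0403 to 1.52 ± 0.194 FPKM (1.19 on the log2 scale, limma adjusted p 3.18e-04) and the semaphorin Sema3g fell from 1.06 ± 0.0637 to 0.0869 ± 0.0220 FPKM (-0.92 on the log2 scale, limma adjusted p 2.54e-04). With the filter set at a mean of 3 FPKM the number that fell was 2, and 2 rose without the filter, in replicates 1 and 3 alone or without TGF-β1 replicate 2.

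Of 12 genes of proteins that process or bind VEGFs 9 were tested, and 6 rose and 1 fell, against 24.5% and 23.6% of all tested rows, with a median of 1.15. Thbs1, an inhibitor of vessel growth that binds VEGF-A, rose from 18.2 ± 0.343 to 221 ± 15.2 FPKM (3.53 on the log2 scale, limma adjusted p 3.26e-06). Ctgf, which also binds VEGF-A, rose from 48.2 ± 19.4 to 1154 ± 152 FPKM (4.63, limma adjusted p 9.54e-05). Adamts1, a protease that binds VEGF-A, fell from 147 ± 14.5 to 8.56 ± 0.161 FPKM (-3.95, limma adjusted p 3.82e-06). Ccbe1, the cofactor for cleavage of VEGF-C and named after its value was seen, rose from 2.20 ± 0.230 to 33.3 ± 0.857 FPKM (3.42 on the log2 scale, limma adjusted p 4.41e-06). The row of Ccbe1 names a transcript annotated as non-coding. Adamts3, the protease that works with it, stayed at or below 0.135 FPKM in every library (limma without the filter, adjusted p 0.566).

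Of 6 angiopoietin-like genes 2 were tested and both rose, against 24.5% of all tested rows. Angptl2 rose from 16.1 ± 1.11 to 58.7 ± 3.23 FPKM (1.81 on the log2 scale, limma adjusted p 3.05e-05) and Angptl4, an inhibitor of lipoprotein lipase, from 3.41 ± 0.411 to 6.62 ± 0.347 FPKM (0.79, limma adjusted p 0.00145). Without the filter, Angptl6 rose from 0.291 ± 0.240 to 1.32 ± 0.475 FPKM (limma adjusted p 0.0215) and Angptl7 fell from 0.420 ± 0.205 to 0.0470 ± 0.0472 FPKM (limma adjusted p 0.0354), both named after their values were seen. Of 30 genes that signal below VEGF receptors, 26 were tested, and 11 rose, 5 fell and 10 did not pass, against 24.5% of all tested rows that rose and 23.6% that fell, with a median of 0.11. Those with the largest change were Sphk1, which makes sphingosine-1-phosphate (3.52 ± 0.929 to 24.3 ± 0.473 FPKM, 2.51, limma adjusted p 9.50e-05), the cyclooxygenase Ptgs2 (8.58 ± 1.36 to 49.4 ± 1.66 FPKM, 2.40, limma adjusted p 3.61e-05) and the lipid kinase Pik3cb (2.92 ± 0.273 to 10.9 ± 0.826 FPKM, 1.60, limma adjusted p 8.09e-05). These genes serve many receptors besides those of VEGF. The number of this list that fell was 8 after rescaling to the sum of protein-coding rows, and 3 without Control replicate 2 and in replicates 1 and 3 alone.

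**Figure D5:**
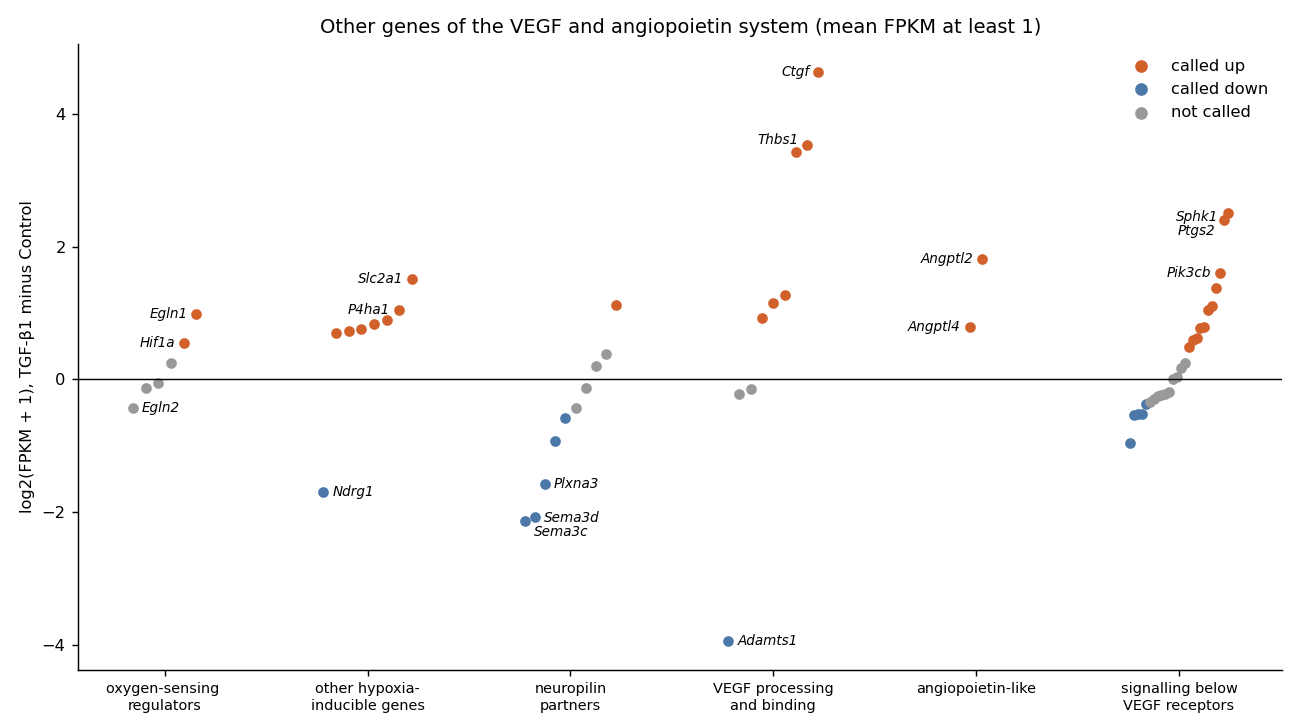
Change with TGF-β1 of the tested genes of 6 lists around the VEGF and angiopoietin system, 1 point per gene on the log2(FPKM + 1) scale, orange for called up, blue for called down and grey for not called, with the 3 genes of largest change in each list named. Of the VEGF processing and binding genes 6 rose and 1 (Adamts1) fell, and of the neuropilin partners 1 rose and 5 fell.

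Markers of other cell types moved with the treatment too. Of 7 tubule epithelium markers 2 were tested and both fell, Cdh16 from 130 ± 16.1 to 6.30 ± 0.564 FPKM and Aqp1 from 10.4 ± 1.62 to 0.169 ± 0.0855 FPKM (limma adjusted p 6.13e-06 and 2.18e-05). Without the filter, Lrp2 fell from 1.43 ± 0.443 to 0.230 ± 0.0167 FPKM (limma adjusted p 0.00369), while the keratin Krt18 rose from 0.279 ± 0.120 to 1.57 ± 0.219 FPKM (1.01 on the log2 scale, limma adjusted p 0.00143). The epithelial markers Cdh1 and Krt8 were at most 0.173 FPKM in any library. Of 3 tested macrophage markers, Cd14 (94.3 ± 13.6 to 7.71 ± 0.819 FPKM, limma adjusted p 1.72e-05) and Csf1r (6.27 ± 0.979 to 0.411 ± 0.156 FPKM, limma adjusted p 8.56e-05) fell and Cd68 did not pass (limma adjusted p 0.393), and Ptprc, carried by all blood cells, was listed at 0 in every Control library. The podocyte markers Synpo and Podxl fell, with log2 changes of -0.58 and -0.56 and limma adjusted p-values of 0.00242 and 0.0185. The podocyte gene Nphs1 was at most 0.398 FPKM in any library. The call of Podxl was lost without Control replicate 2, TGF-β1 replicate 1 or TGF-β1 replicate 3, at adjusted p-values of 0.0522 to 0.0572. The sum of mesangium markers was 1406 to 1705 FPKM in Control and 5285 to 6214 FPKM with TGF-β1, of which Acta2 and Tagln made up most, and Pdgfrb fell (limma adjusted p 0.0396) while Gata3 did not pass (limma adjusted p 0.276). Without the filter, Cspg4 rose from 0.0735 ± 0.0367 to 1.21 ± 0.257 FPKM (1.04 on the log2 scale, limma adjusted p 9.51e-04). The call of Pdgfrb was lost without the filter, in replicates 1 and 3 alone, and without Control replicate 2 or 3 or TGF-β1 replicate 1, 2 or 3. The tubule sum (mostly Cdh16), the macrophage sum (mostly Cd14), Synpo and Podxl were lower in the same libraries as Figf and Vegfb. The mesangium sum was higher in the same libraries as Vegfa and Vegfc. Their part in those changes was not tested. In bulk RNA, fewer cells of a type and less RNA per cell cannot be told apart.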

How the data were processed

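RNA of 3 Control and 3 TGF-β1 cultures was sequenced on an Illumina HiSeq 2000. Reads of low quality were discarded by the authors, and the others were mapped to mm9 with TopHat (the submitters' processing notes name TopHat2 2.0.11) and turned into FPKM with Cufflinks. The deposited values are FPKM, 1 column per library, and 19699 of 19730 rows were found in the mm9 annotation (GENCODE M1) by transcript identifier. Whether a row holds a gene or only the named transcript, and whether strand was used, is not given in the sources used here. The study tested counts with DESeq, and counts were not used here.

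limma 3.58.1 in R 4.3.3 (lmFit, eBayes with a mean-variance trend, two-sided) was run on log2(FPKM + 1) for 11898 rows whose mean FPKM was 1 or more, all 6 libraries together. The pseudocount of 1 understates changes of low genes. Genes under the filter came from the same fit without it. On simulated data the fit recovered 38% of changes of 0.6 on the log2 scale, 84% of changes of 1 and 98% of changes of 2. Of the calls there 3.66% were false. The changed rows there were drawn from rows with a small spread within groups and a Control level that was not low. Recovery was therefore not measured for noisy rows or for genes under the filter. Smaller changes were not simulated, and far fewer rows changed there than in these data. Depth was the fragment total that made low values (under 0.6 FPKM, at most 6 fragments) of single-transcript genes whole within 0.1 fragments, with an assumed fragment length of 200 nt. In each library 99.5% to 99.9% of these values came out whole. Fragments are approximate.

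Across tested rows Pearson's r between libraries of 1 group was 0.876 to 0.940, and between libraries of different groups 0.818 to 0.853, as a description across genes. The genes named are all 10 members, the 3 tested genes of largest change in each list, every gene of the receptor list, and the 3 profiles nearest to Vegfa and Figf, except a few that are not reported here. Members and lists were chosen with earlier results of these data known. 15 alternatives were run. Promoter windows were read from the mm9 genome. Tables and plots were made with pandas 2.3.3 and matplotlib 3.10.9 under Python 3.11.15.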

Additional observations from a re-analysis of the deposited data

How the results depend on the processing

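Vegfa, Vegfb, Vegfc and Figf kept their direction and their call under all 15 alternatives, with log2 changes of 1.57 to 1.80, -0.94 to -0.66, 1.18 to 1.68 and -4.49 to -3.55. Nrp1 and Angpt2 passed under none of theirs. Flt1 was lost with a pseudocount of 0.1 (log2 change 0.69, adjusted p 0.0958), after rescaling to the sum of protein-coding rows (0.21, 0.0761), with the replicate number as a block (0.27, 0.0615) and in replicates 1 and 3 alone (0.28, 0.0748). Leaving out 1 library gave Flt1 0.24 to 0.30. Nrp2 was lost without the filter on low values (-0.31, 0.0683) and in replicates 1 and 3 alone (-0.31, 0.0846), and leaving out 1 library gave -0.37 to -0.25. Angpt1 was lost in replicates 1 and 3 alone (0.49, 0.177), and leaving out 1 library gave 0.51 to 0.70. Pgf went from -0.13 to 0.0026 when 1 library was left out, and its sign changed without Control replicate 2, whose 4 fragments are the most of any library. The cause of these losses was not tested, and fits that leave libraries out also rest on fewer of them.

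The count of changed rows stayed within 1.5 times of 5721 under all alternatives. Both groups carry the same replicate numbers. Deviations from the group mean correlated across genes at 0.09, 0.23 and 0.09 for replicates 1, 2 and 3. Among unmatched numbers, Control replicate 1 with TGF-β1 replicate 3 gave 0.12, and the other pairs gave -0.19 to -0.02. The numbers were not taken to pair the samples in the main fit. With the replicate block 5391 rows changed, and Flt1 was the only one of the 10 genes to lose its call. A term setting both libraries of replicate 2 apart changed no call among the 10. Genes under 1 FPKM rest on few fragments, and depth limits what can be said of Pgf, Angpt1, Angpt2, Flt1 and the receptors.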
